A study of Mus musculus with 3 samples.

Results

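The 10 genes described here encode proteins that dampen signals of the T cell receptor (TCR): the lipid kinases Dgka and Dgkz, the tyrosine phosphatases Ptpn6, Ptpn22 and Ptpn2, the phosphatase family members Ubash3a and Ubash3b, the ubiquitin ligase Cblb, and the membrane adaptors Pag1 and Sit1. They were taken by name from a table of 14355 genes, and 10 of 10 were found in it. The cells were naive CD4 T cells from C57BL/6 mice aged 8 to 12 weeks, males and females pooled, taken from spleen and lymph node and sorted fresh, with no allele, agent or treatment named for any group. The sort kept live single cells that carried TCRb, CD4, CD62L and CD5 and lacked CD8, CD25 and CD44 at the surface, and it recorded the CD5 fluorescence of each cell. All groups therefore share 1 strain and 1 gate, and they were divided by CD5 alone. Each plate of 384 wells was made into a library by SORT-seq, a plate method that reads the 3′ end of each transcript with a unique molecular identifier (UMI) of 6 bases. 1 UMI thus stands for 1 captured transcript whatever its length, and levels of different genes are set side by side on that basis. Differences between genes in capture or mapping were not measured.

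When a TCR binds its ligand, the kinases Lck and Zap70 phosphorylate the receptor chains and their adaptors, and phospholipase C then makes diacylglycerol, the lipid that switches on the Ras and protein kinase C branches. Diacylglycerol kinases remove that lipid, tyrosine phosphatases undo the phosphorylation, ubiquitin ligases mark signalling proteins for removal, and adaptors such as the product of Pag1 bring the inhibitory kinase Csk to the membrane. A naive T cell receives weak tonic signals from self-ligands all the time, and its surface CD5, itself a negative regulator, follows their strength. The comparison along CD5 therefore asks whether the transcripts of these brakes differ between cells of weak and strong self-reactivity.

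In all, 697 cells were available, with 172, 201 and 324 in plates 1, 2 and 3 and 726230, 1113632 and 1404157 UMIs. The authors' CD5 classes hold 174 Low, 349 Middle and 174 High cells, with at least 46 cells of each class in every plate. Plates reused well numbers and so cell barcodes: 42 were shared by plates 1 and 2, 150 by plates 1 and 3 and 173 by plates 2 and 3, and cells of the same well in different plates correlated at a median of 0.463 against 0.461 for other wells. The labelled cell type showed its defining markers, with a UMI of Cd4 in 95.7% of cells and of Cd3e in 80.6%, while the B cell markers Cd79a, Cd79b and Ms4a1 were found in 0.574% to 1.58% and Cd8a and Cd8b1 in 1.0% and 4.16%. Of the other markers listed, Klrd1 of NK cells was found in 9.04%, Cst3 of myeloid cells in 19.9% and at least 1 of 4 regulatory T cell markers in 13.9%. Only 2 of the 4 NK cell markers listed were in the table of genes, and the other, Nkg7, was found in 0.143% of cells. Cst3 was the only 1 of 5 listed myeloid markers in it, so neither lineage is shown by its list as a whole. Plate 2 stood apart in its Cd5 mRNA. Median fluorescence rose from Low to High cells in every plate: 19356 to 92494 (plate 1), 15338 to 86236 (plate 2) and 16421 to 89584 (plate 3). The classes were divided by CD5, so this rise was set in advance and cannot check the fluorescence values or classes of plate 2. Levels are given in CPM, the UMIs of a gene scaled to a common total of gene UMIs per library. Cd5 mRNA was at 96.6, 259 and 49.6 CPM in the Low class of plates 1, 2 and 3 and 638, 282 and 335 in the High class, so it barely differed in plate 2 (log2 ratios of 2.72, 0.12 and 2.75). Values without plate 2 are given below for Dgkz, Ptpn2, Ubash3b and Pag1, but not for Cd5 or Cd6.

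Dgka was by far the most abundant of the 10 transcripts. Diacylglycerol kinase alpha, its product, turns diacylglycerol into phosphatidic acid and so ends its signal. The level of Dgka was 2609, 2525 and 2310 CPM in plates 1, 2 and 3 (2481 ± 154, SD, n = 3 plates), which placed it at rank 63 among all genes. A Dgka UMI was found in 96.6% of cells (95% exact Clopper-Pearson interval 94.9 to 97.8, counting error only), with a median of 9.01 and a highest value of 61.45 UMIs per cell. The gene gave 7950 UMIs, 72.1% of the 11033 UMIs of all 10 genes. Dgkz, which encodes the zeta isoform of the same enzyme family, stood at 215, 199 and 189 CPM (201 ± 13.1). Dgka therefore exceeded Dgkz 12.1, 12.7 and 12.2 times in plates 1, 2 and 3, a ratio that varied little between plates (12.3 ± 0.277).

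The phosphatase genes Ptpn22 and Ptpn6 lay at the level of Dgkz. Ptpn22, whose product works with Csk to dephosphorylate Lck and Zap70, was measured at 219, 279 and 192 CPM in plates 1, 2 and 3 (230 ± 44.9) and found in 38.5% of cells (interval 34.8 to 42.2). Ptpn6, the gene of the phosphatase SHP-1, was at 156, 210 and 232 (199 ± 39.1) and in 38.7% of cells (35.1 to 42.5). Dgkz was found in 46.1% (42.3 to 49.8). The place of Ptpn6 among the 3 changed from plate to plate. Ptpn22 was above Dgkz in each plate, but by little in plates 1 and 3, and the plates of these genes overlapped. Ptpn2, which encodes a phosphatase of Lck, Fyn and the Jak kinases, was lower than Ptpn22 and Ptpn6 in every plate, at 44.1, 41.3 and 74.8 (53.4 ± 18.6), and was found in 14.6% of cells (12.1 to 17.5).

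The remaining genes were rare transcripts. Cblb, an E3 ubiquitin ligase that sets the need for costimulation, was the steadiest of them, at 67.5, 71.9 and 67.0 CPM in plates 1, 2 and 3 (68.8 ± 2.69). Pag1, the adaptor that anchors Csk in membrane rafts, was at 53.7, 57.5 and 85.5 (65.5 ± 17.4). Sit1, an adaptor that binds the phosphatase SHP-2, was at 20.7, 53.9 and 51.3 (41.9 ± 18.5), with plate 1 far below the others. Ubash3b encodes the more active and Ubash3a the less active phosphatase of a family that acts on Zap70 and its relative Syk. Ubash3a was at 31.7, 50.3 and 41.3 (41.1 ± 9.31) and Ubash3b at 28.9, 45.8 and 30.6 (35.1 ± 9.29). UMIs of these genes were found in between 8.75% (Ubash3b, interval 6.76 to 11.1) and 18.2% (Cblb, 15.4 to 21.3) of cells. The plates hold no cell type that should lack the 10 genes, so the share that stray RNA can give was not measured. Markers of other lineages ranged from 0.143% (Nkg7) to 19.9% (Cst3) of cells, a range that covers the shares of the 6 rarest members.

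The 10 levels thus formed 3 tiers that did not overlap between plates: Dgka alone, then Ptpn22, Dgkz and Ptpn6 at 156 or more in every plate, then the other 6 genes at 85.5 or less. Within the lowest tier neighbours in the order Cblb, Pag1, Ptpn2, Sit1, Ubash3a and Ubash3b overlapped between plates.

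**Figure D1:**
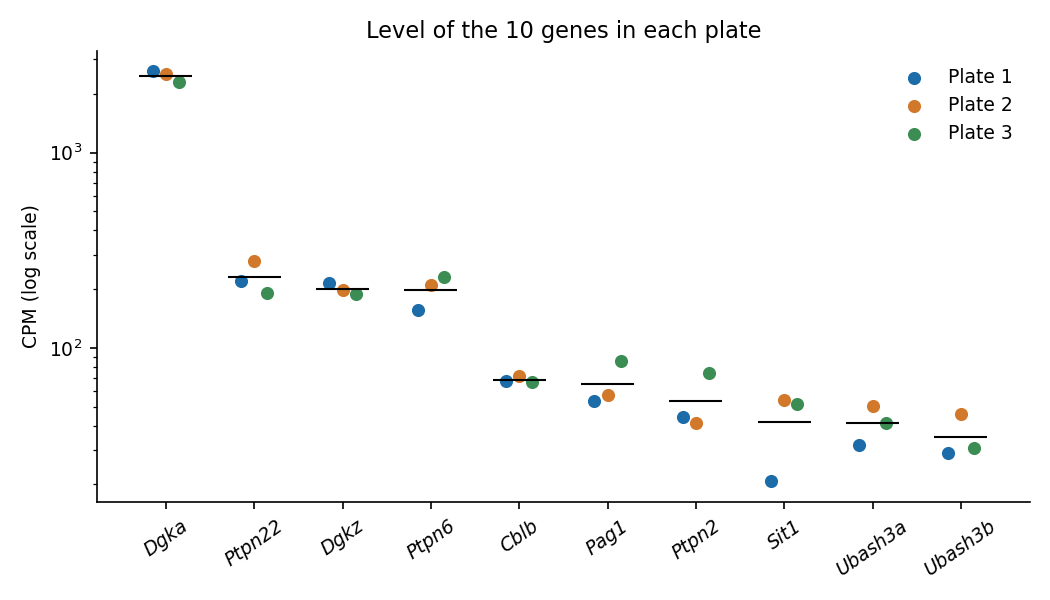
Level of each of the 10 genes in CPM (vertical axis, log scale), with 1 point per plate and a line at the mean of the 3 plates. Dgka lies above 2000 in all plates, Ptpn22, Dgkz and Ptpn6 lie between 156 and 279, and the other genes lie at 85.5 or less.

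All 10 genes are annotated as protein coding (GENCODE M21, build mm10). Dgka lies on chromosome 10 at 128720134 to 128744855 on the minus strand, and its 3′ end overlaps Pmel on the plus strand, a pigment cell gene with 16 UMIs in these cells against 7950 for Dgka. Dgkz lies on chromosome 2 at 91932824 to 91975864 on the minus strand, with the same-strand neighbour Mdk (66 UMIs) within 2000 bases of its 3′ end. Ptpn6 is on chromosome 6 at 124720707 to 124738714, Ptpn22 on chromosome 3 at 103859795 to 103912247, Ptpn2 on chromosome 18 at 67665511 to 67724595 and Cblb on chromosome 16 at 52031225 to 52208048. Ubash3a is on chromosome 17 at 31207873 to 31246892 and Ubash3b on chromosome 9 at 41011098 to 41161697. Pag1 is on chromosome 3 at 9687479 to 9833679 and Sit1 on chromosome 4 at 43482081 to 43483734. On the same strand, Gm15472 and Gm43065 overlap Ptpn22, Gm48611 overlaps Ubash3b, Gm24786 overlaps Pag1 and Mir6999 overlaps Dgkz. Same-strand genes at or within 2000 bases of a 3′ end were also Rsbn1 for Ptpn22 (61 UMIs), Gm15884 for Ptpn6 and AC154652.1 for Ubash3a. The reads that such neighbours may share with the members were not measured. No source used here states whether counting used strand, so reads of a gene and of a partner on the other strand may not be told apart.

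Cells differ in depth, so shares of cells with a UMI were also taken after each cell was thinned at random to 2118 UMIs, which 557 of the 697 cells reached. The share was 95% for Dgka (mean of 3 plates), 29.9% for Dgkz, 25.7% for Ptpn6, 25.4% for Ptpn22, 10.8% for Pag1, 9.50% for Cblb, 8.30% for Sit1, 7.73% for Ptpn2, 6.22% for Ubash3a and 5.53% for Ubash3b. Of thinned cells, 20.8% had a UMI of none of the 9 genes other than Dgka, 41.1% of 1, 26.4% of 2, 8.44% of 3 and 3.23% of 4 or more. A naive cell at this depth therefore showed Dgka in nearly every case and, at the median, 1 of the other 9.

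Of the 10 genes, Dgka had the highest ratio of variance to mean over thinned cells in each plate. The middle 90% of cells held from 1 to 13 Dgka UMIs, with a median of 4. The ratio was 3.13, 3.33 and 2.70 for Dgka in plates 1, 2 and 3 (3.05 ± 0.319), above the 90th percentile of genes averaging 0.05 UMIs or more in each plate (2.20, 2.17 and 1.86). It was 2.13 ± 0.662 for Ptpn22, 1.92 ± 0.244 for Ptpn6 and 1.40 ± 0.264 for Dgkz, where the median gene had 1.42, 1.46 and 1.36. Dgkz, at the same mean level as Ptpn22 and Ptpn6, was thus spread more evenly over cells in each plate. Ptpn22 had a Middle cell of plate 2 with 20.05 UMIs, 2.71% of all its UMIs, and Ptpn6 a Middle cell of plate 3 with 15.03. The ratio rises with the mean for any gene whose expression varies between cells, so it is a description of each gene at its level, with no test.

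**Figure D2:**
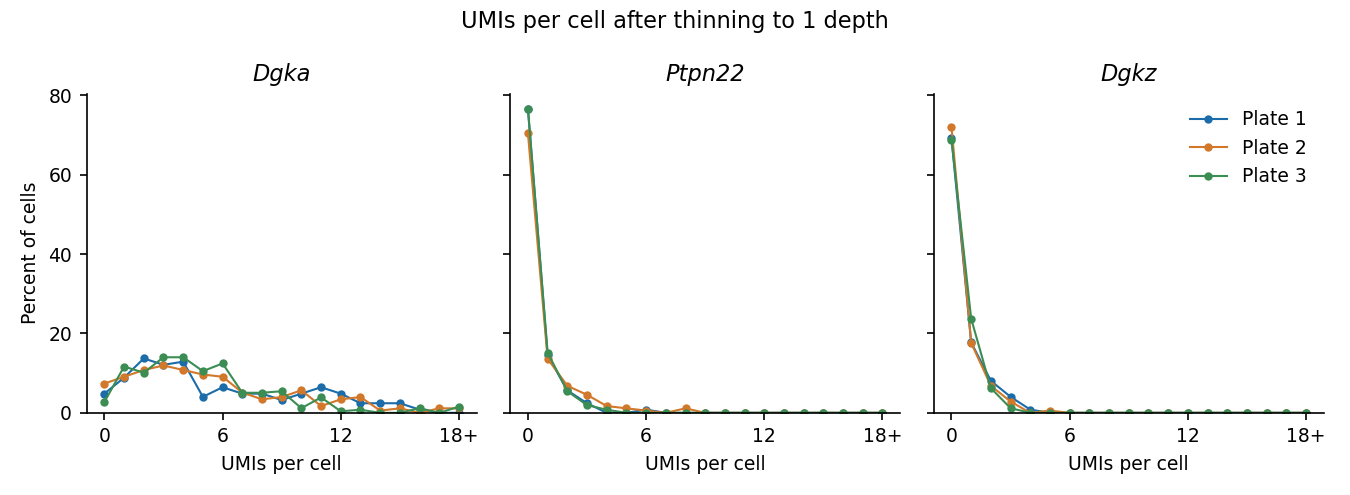
Percent of cells (vertical axis) by UMIs per cell (horizontal axis, the last point holding 18 or more) for Dgka, Ptpn22 and Dgkz after thinning to 2118 UMIs, with 1 line per plate. Dgka spreads broadly around a median of 4 UMIs with few cells at 0, while most cells have 0 UMIs of Ptpn22 or Dgkz.

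None of the 10 transcripts was called different between the High and Low CD5 classes, and Dgka had the narrowest interval of the 10. With edgeR's quasi-likelihood test (Benjamini-Hochberg adjusted p under 0.05 over all genes, plate as a block), 0 members were higher and 0 lower, of 10 tested, while 9 of 4813 genes, or 0.187%, were called, 0.166% higher and 0.0208% lower. At an unadjusted p under 0.05 there were 2 members, Dgkz and Ubash3b, against 6.19% of all genes. DESeq2's Wald test called 0 members, with 0 at an unadjusted p under 0.05. The members' median log2 fold change was -0.03, against 0.004 over all genes tested, with 4 positive and 6 negative. Of the 10 members, 2 had more in High than in Low cells of all 3 plates (Ptpn22 and Ubash3a), where 11.9% of all genes were, and 1 had less in all 3 (Pag1), where again 11.9% were. Median UMIs per cell in plates 1, 2 and 3 were 4200, 4987 and 4604 in the Low class. In the High class they were 2527, 5401 and 3688, so it was shallower in plates 1 and 3. Thinned values for Dgka, Dgkz, Ptpn22, Ubash3b and Pag1 are given below. Thinning left 150 Low, 275 Middle and 132 High cells and left out 24, 74 and 42 shallower ones. Thinned values therefore differ from the others in the cells used as well as in depth.

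**Figure D3:**
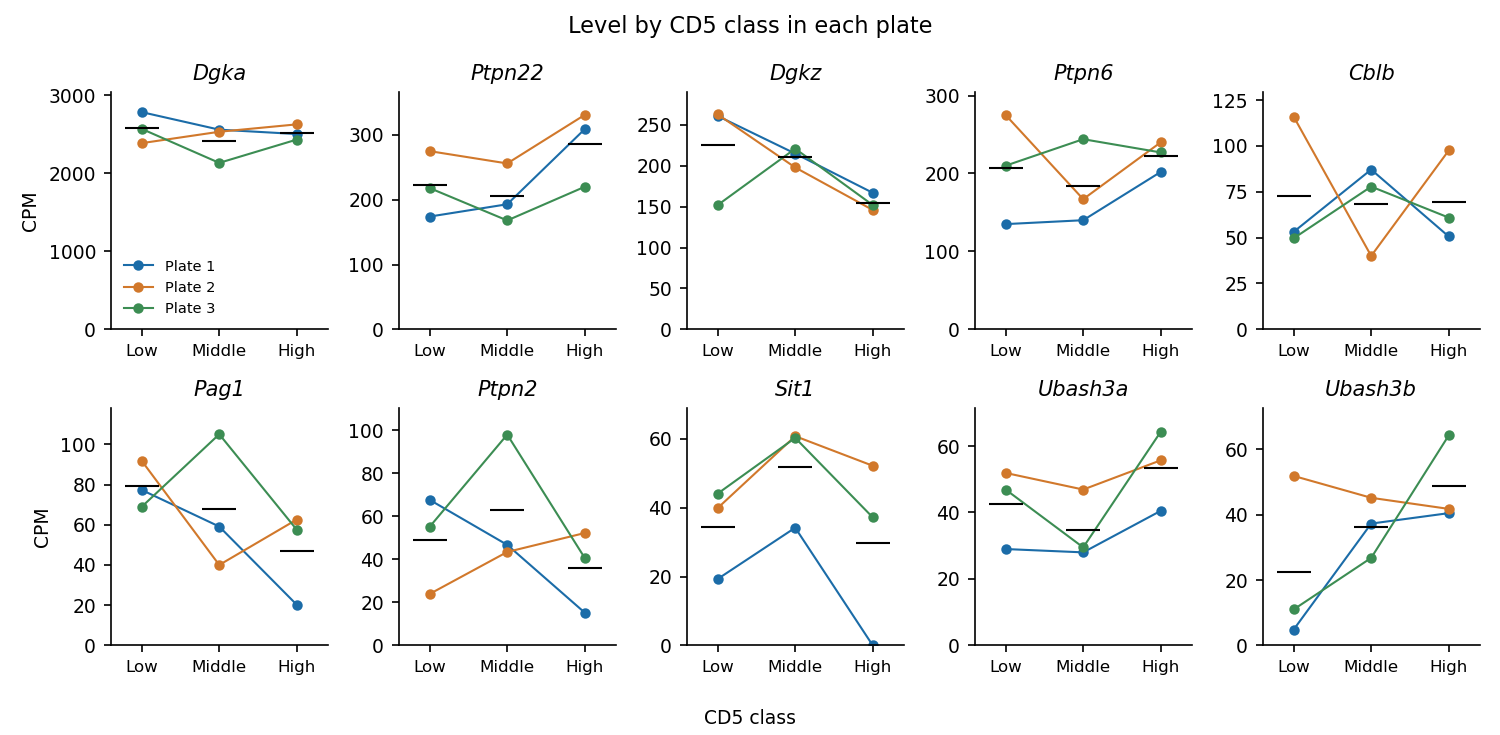
Level of each gene in CPM (vertical axes start at 0 and differ between panels) in the Low, Middle and High CD5 classes (horizontal axis), with 1 line per plate and a black bar at the mean of the 3 plates. None of the 10 passed the edgeR test. Pag1 is lower in High than in Low in each plate, and Ubash3b is higher in plates 1 and 3 but not in plate 2.

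The lipid kinases came first in abundance and Dgka gave the tightest estimate. Dgka was at 2785, 2387 and 2570 CPM in the Low class of plates 1, 2 and 3, at 2560, 2533 and 2134 in the Middle class and at 2504, 2628 and 2433 in the High class. The classes overlapped, and plate 2 ran opposite to the others. The High level was 0.982 of the Low level, with a 95% interval of 0.874 to 1.10 (log2 -0.03, SE 0.08, edgeR adjusted p = 0.989). In cells thinned to 1 depth the log2 value was -0.18, with an unadjusted p of 0.0912 and an edgeR adjusted p of 0.905. Dgkz was at 261, 263 and 152 in the Low class and at 167, 146 and 152 in the High class, so plates 1 and 2 were lower in High and plate 3 was equal. Its log2 fold change was -0.50 (SE 0.25, 95% interval -1.0 to -0.0017, unadjusted p = 0.0493, edgeR adjusted p = 0.806). Without plate 3 it was -0.77 and without plate 2 it was -0.30, neither past the adjusted threshold. In thinned cells the value for Dgkz was -0.61 (unadjusted p = 0.0834, edgeR adjusted p = 0.905). Without the cell with most UMIs of each member it was -0.39 (unadjusted p = 0.135, edgeR adjusted p = 0.913). Dgkz UMIs were found in 48.9% of Low (interval 41.2 to 56.5), 47.0% of Middle and 41.4% of High cells (34.0 to 49.1), or 32.7%, 30.5% and 25.8% after thinning. By plate the thinned shares of Low and High cells were 33.3% and 21.9% in plate 1 and 46.3% and 23.9% in plate 2, but 24.3% and 29.6% in plate 3.

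Among the phosphatases, Ptpn22 was higher in the High class in each plate, from 174, 275 and 218 CPM in Low to 309, 331 and 220 in High, although the classes overlapped across plates and plate 3 was level. The log2 fold change was 0.34 (SE 0.22, interval -0.10 to 0.78, edgeR adjusted p = 0.913). Cells thinned to 1 depth gave 0.05, cells with no UMI of Foxp3 or of another cell type's markers (428 of the 697) gave -0.03, and without plate 1 the value was 0.13. The marker setting left out 269 cells. Of its markers, Cst3 was found in 139 cells, Klrd1 in 63 and Foxp3 in 56, so it does not single out regulatory or stray cells. A deeper cell is also more likely to hold such a UMI, and this was not separated from cell type. A Ptpn22 UMI was found in 42.0% of Low and 42.5% of High cells. Ptpn6 ran from 135, 275 and 210 in Low to 202, 240 and 227 in High, with overlap and mixed directions (log2 0.12, SE 0.24, edgeR adjusted p = 0.983). Ptpn2 ran from 67.6, 23.9 and 55.1 to 15.2, 52.2 and 40.6, again mixed (log2 -0.33, SE 0.50, adjusted p = 0.982), and its interval of -1.33 to 0.67 is wide. Leaving out plate 2 gave -1.08 for Ptpn2, and leaving out plate 1 gave 0.29.

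Ubash3b had the largest fitted difference of the 10 genes, and it rested on few molecules. Its sums held 1, 13 and 4 UMIs in the Low class of plates 1, 2 and 3 and 8, 12 and 19 in the High class, or 4.83, 51.9 and 11 against 40.5, 41.8 and 64.3 CPM. High was above Low in plates 1 and 3, with ratios of 8.37 (counting interval 1.12 to 372) and 5.83 (1.94 to 23.5), and below it in plate 2 at 0.805 (0.336 to 1.91). The fitted log2 fold change was 1.26 (SE 0.60, interval 0.04 to 2.47, unadjusted p = 0.0430, edgeR adjusted p = 0.791). Without plate 2, the plate in which Cd5 mRNA barely differed, it was 2.62, with an unadjusted p of 0.00459 and an edgeR adjusted p of 0.361. Without plate 1 it was 0.95 and without plate 3 it was 0.56, with adjusted p = 0.918 and 0.997 by edgeR. A single High cell of plate 3 held 7.0 Ubash3b UMIs, 6.10% of the gene's total. A Ubash3b UMI was found in 6.90% of Low (3.61 to 11.7), 8.88% of Middle and 10.3% of High cells (6.25 to 15.9), with overlapping intervals. After thinning these shares were 4.0%, 7.27% and 3.79%, and the plates differed. Low and High cells had 0 and 0% in plate 1, 12.2% and 4.35% in plate 2, and 1.43% and 5.56% in plate 3. Ubash3a, the related gene, had 29.0, 51.9 and 46.9 CPM in Low and 40.5, 55.7 and 64.3 in High (log2 0.33, SE 0.46, adjusted p = 0.979). It gave -0.38 in cells with no UMI of Foxp3 or other markers.

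The ligase and the adaptors did not pass either. Cblb, the ligase gene, was at 53.1, 116 and 49.6 CPM in the Low class and at 50.6, 97.5 and 60.9 in the High class (log2 -0.03, SE 0.42, edgeR adjusted p = 0.992), with plate 2 high in both classes. Pag1 had a lower CPM in the High class of each plate, from 77.3, 91.8 and 68.9 to 20.2, 62.6 and 57.5. It was the 1 member lower in High with no overlap between the classes across plates, as 3.84% of all genes were. Of the members 0 were higher without overlap, and the share of all genes higher in that way was not counted. Pag1 had 16, 23 and 25 UMIs in Low and 4, 18 and 17 in High. Counting intervals of the ratio were 0.0637 to 0.811, 0.347 to 1.32 and 0.423 to 1.61 in plates 1, 2 and 3. After thinning, a Pag1 UMI was found in 15.4% of Low and 3.12% of High cells in plate 1. The shares were 12.2% and 10.9% in plate 2, but 8.57% and 11.1% in plate 3. The log2 fold change of Pag1 was -0.73 (SE 0.43, interval -1.59 to 0.13, edgeR adjusted p = 0.880). It was -0.06 in the smaller set of 428 cells with no UMI of Foxp3 or other markers. Plate 1 carried much of the difference, and without that plate the value was -0.40. Without plate 2 it was -0.86. Sit1 was at 19.3, 39.9 and 44.1 in Low and at 0, 52.2 and 37.2 in High (log2 -0.24, SE 0.55, edgeR adjusted p = 0.986). The value of 0 is 0 of 197745 UMIs, which allows up to 15.2 CPM, close to the 19.3 of the Low class in that plate.

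The trend over fluorescence used the whole range of CD5, with the cells of each plate ranked and summed in 4 bins. Cd5 mRNA itself rose by 0.62 on the log2 scale per doubling of CD5 (SE 0.11, edgeR adjusted p = 0.00328), with slopes of 1.15, 0.12 and 0.90 in plates 1, 2 and 3. Of the 10 members 0 rose and 0 fell, where 6 of 5019 genes, or 0.120%, were called, and 0 members had an unadjusted p under 0.05, as 4.80% of all genes did. All edgeR adjusted p of the members rounded to 1, the DESeq2 Wald test called 0 members with 0 at an unadjusted p under 0.05, and the median slope was 0.03 against -0.000 over all genes.

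The slope of Dgka was the most narrowly bounded, at -0.03 per doubling (SE 0.04, interval -0.10 to 0.05). It was -0.08 in thinned cells (unadjusted p = 0.0559, edgeR adjusted p = 0.869) and -0.07 with 3 bins (unadjusted p = 0.0588, edgeR adjusted p = 0.987). Its level was 2541 ± 197 CPM in the lowest and 2401 ± 114 in the highest bin (SD, n = 3 plates), with the plates overlapping. Pag1 had -0.31 (SE 0.16, interval -0.62 to 0.01, unadjusted p = 0.0582) and slopes of -0.55, -0.32 and -0.10 in plates 1, 2 and 3. It stood at 85.0, 85.8 and 70.3 in the lowest bin of the 3 plates and at 21.7, 58.5 and 55.8 in the highest, so these bins did not overlap (4.06% of all genes were lower there without overlap). The slope of Pag1 was -0.38 with 3 bins and -0.32 with 6, at unadjusted p of 0.0192 and 0.0391 and edgeR adjusted p of 0.910 and 0.962. It was -0.09 in cells with no UMI of Foxp3 or other markers. Ubash3b had 0.38 (SE 0.24, unadjusted p = 0.111), with slopes of 0.69, -0.28 and 1.12. Without plate 2 the slope of Ubash3b was 0.93, and without plate 3 it was 0.07. The other 7 slopes lay between -0.13 (Dgkz, SE 0.10) and 0.09 (Ptpn22, SE 0.08). Cell by cell, the Spearman correlation with CD5 lay between -0.20 and 0.15 for every member and plate, against 0.39, 0.08 and 0.26 for Cd5 in plates 1, 2 and 3. These correlations are over sparse counts of cells that share a library and are given as a description.

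**Figure D4:**
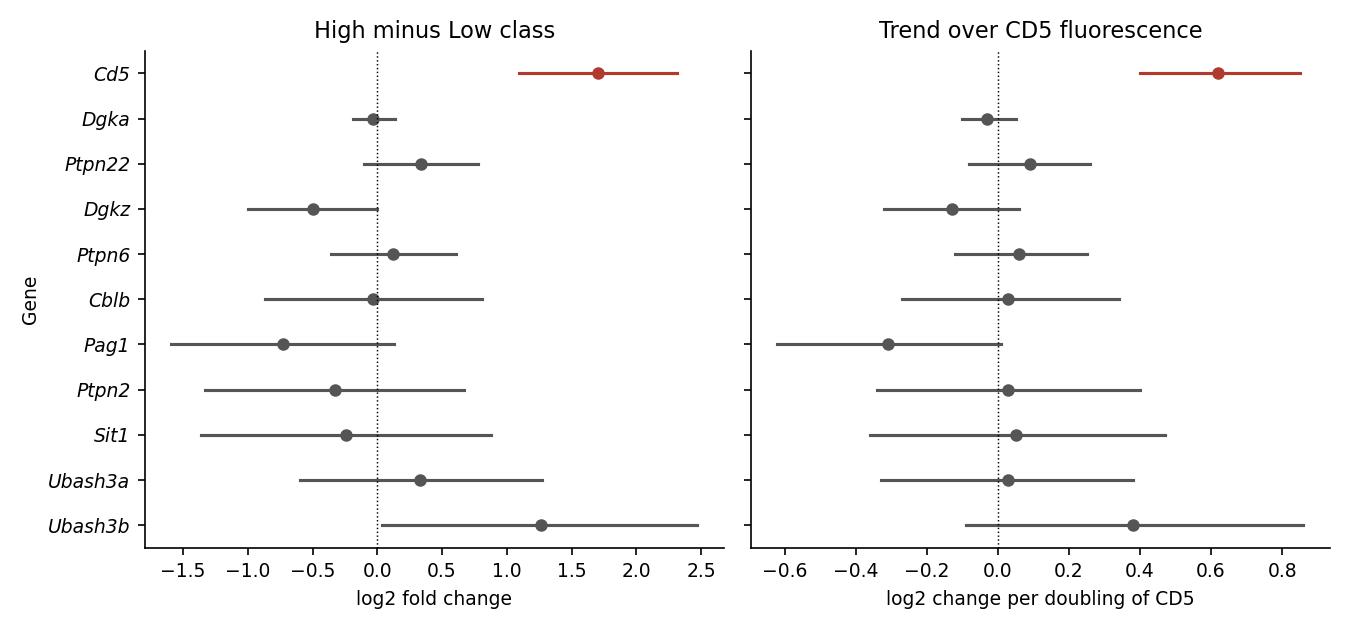
Left, log2 fold change of High minus Low for Cd5 (red) and the 10 genes (grey), and right, log2 change per doubling of CD5 fluorescence, with bars for the 95% interval from edgeR. Cd5 lies at 1.70 and 0.62 with intervals clear of 0, Dgka has the shortest bars, and Ubash3b the longest.

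A further split asked whether the members' share of a cell's UMIs moved with the amount of RNA recovered. The cells of each plate were divided at the plate's median total, into poorer cells with medians of 1962, 3088 and 2363 UMIs in plates 1, 2 and 3 and richer cells with 5654, 7804 and 5874. Of 10 members 0 were higher and 0 lower in richer cells by edgeR, where 25 of 5741 genes, or 0.435%, were called (0.105% higher and 0.331% lower), and 0 members had an unadjusted p under 0.05, as 6.86% of all genes did. The DESeq2 Wald test called 0 members, with 0 at an unadjusted p under 0.05 and no adjusted p for 3 of them. Dgka was at 2006, 2676 and 2270 CPM in the poorer and 2805, 2466 and 2326 in the richer cells (log2 0.09, SE 0.09, edgeR adjusted p = 0.941), with overlap. Ptpn22 was at 307, 338 and 174 in the poorer and 190, 256 and 198 in the richer cells (log2 -0.31, SE 0.18, edgeR adjusted p = 0.787), lower in plates 1 and 2 and higher in plate 3. Of the 10 members 4 were higher in richer cells of all 3 plates, where 16.3% of all genes were, and 0 were lower in all 3, where 12.2% were. These were Ubash3b, from 27.9, 28.7 and 15.6 to 29.2, 52.5 and 36.3 (log2 0.76, SE 0.47, edgeR adjusted p = 0.797), Sit1, from 0, 38.3 and 49.3 to 27.4, 60.0 and 52.0 (log2 0.63, SE 0.45, edgeR adjusted p = 0.846), and Ptpn2 and Pag1 with log2 0.46 and 0.38. All 4 are among the 6 rarest members, and none passed. Detection, in contrast, followed depth: a Dgkz UMI was found in 30.7% of poorer and 61.5% of richer cells, and a Cblb UMI in 11.2% and 25.3%.

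Levels were also read in groups of cells set by other transcripts, as values with no test. The 138 cells with a UMI of the TCR-induced early genes Nr4a1 or Egr1, of median 5243 UMIs against 3839 in the rest, had more Ptpn6 in every plate, at 250, 261 and 290 CPM against 125, 197 and 213. Cblb (79.4, 95.6 and 85.8 against 63.6, 65.7 and 61.0) and Pag1 (62.4, 69.5 and 142 against 50.9, 54.3 and 67.5) were higher there in 3 of 3 plates, as 13.7% of all genes were. Ubash3a was lower in 3 of 3, at 22.7, 26.1 and 29.6 against 34.5, 56.6 and 45.0, as 12.5% of all genes were. In plates 1, 2 and 3 these cells held 4, 6 and 10 UMIs of Ubash3a. They held 14, 22 and 29 of Cblb and 11, 16 and 48 of Pag1. The 56 cells with a UMI of Foxp3, the transcription factor of regulatory T cells, came from plates 2 and 3, with 8 and 48 cells. They had Cblb at 289 and 100 against 60.5 and 60.1 and Ubash3a at 72.3 and 62.7 against 49.1 and 36.9, higher in both plates as 20.4% of all genes were. Dgkz, Ptpn6 and Sit1 were lower there in both plates, as 30.0% of all genes were. In plate 2 the cells with Foxp3 held 16 UMIs of Cblb, 4 of Ubash3a, 9 of Dgkz, 8 of Ptpn6 and 2 of Sit1. In plate 3 they held 24, 15, 37, 47 and 10 in the same order. The cells with Foxp3 had a median of 5259 UMIs against 4196 in the rest.

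The 10 transcripts showed little tendency to vary together in single cells. Over 45 pairs, the mean over plates of Pearson's r in thinned cells ran from -0.09 (Cblb and Sit1) to 0.10 (Ptpn2 and Ubash3a), with 3 pairs positive and 11 negative in all plates. Counts this sparse hold weak correlations down, so these values describe the data at this depth. Of 1473 genes averaging 0.2 UMIs or more per thinned cell, those most like Dgka, by the lowest r of the 3 plates, were Ddx5 (0.16, 0.20 and 0.12 in plates 1, 2 and 3), Eif3m (0.11, 0.16 and 0.16) and Ski (0.19, 0.11 and 0.18), over 557 cells. Those most like Ptpn22 were Tm9sf3, Nlrc5 and Cox6c, with r from 0.08 to 0.16. Those most like Dgkz were Dock10 (0.17, 0.15 and 0.13), Rab14 and Itpr2.

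Set within their families, Dgka, Ptpn22 and Cblb had the highest mean level of the forms found. Of 10 diacylglycerol kinase genes listed, 8 were in the table and 3 had counts enough to test: Dgka, Dgkz and Dgkd, the delta isoform, at 149 ± 17.9 CPM. Dgke was at 14.6 ± 3.65 and the other 4 found were at 2.03 or less. Of the non-receptor tyrosine phosphatases, 17 were listed, 14 found and 9 tested. Ptpn22 (230) and Ptpn6 (199) led, followed by Ptpn18 (184 ± 19.1), Ptpn1 (110 ± 35.3) and Ptpn7 (102 ± 28.1), while Ptpn2 (53.4) lay beside Ptpn12 (54.2 ± 5.66). Across plates Ptpn22, Ptpn6 and Ptpn18 overlapped. In the CBL family Cblb (68.8) stood above Cbll1 (41.2 ± 3.61) and Cbl (20.5 ± 5.99) in every plate, and Cblc had 1 UMI. By edgeR 0 genes of these 3 families rose and 0 fell between the classes. The smallest p among them was that of Cbll1, a ubiquitin ligase related by sequence, with log2 ratios of -1.26, -2.07 and -2.95 in plates 1, 2 and 3 (fitted log2 fold change -2.01, SE 0.60, edgeR adjusted p = 0.303). Ptpn7 had -0.59 (SE 0.33, adjusted p = 0.859).

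The wider pathway was read from a pair of lists. Of 50 other genes listed as negative regulators of TCR signalling, 50 were in the table and 30 had counts enough to test. The list is broad, with Ptprc, Fyb and Ptpn11 in it, and is not limited to genes that act only as brakes. Csk is in both lists. Cd5 rose between the Low and High classes (log2 1.70, SE 0.30, edgeR adjusted p = 0.00213), 0 fell and 29 did not pass, with 19 of 30 positive and a median log2 fold change of 0.22 against 0.004 over all genes. The list was chosen with earlier results of these data known, and neither its median nor its share of positive genes was tested. Cd5, counted in the 19, is the gene of the sorted protein. Cd6, its close relative, had 1.26 (SE 0.31, edgeR adjusted p = 0.0990), with 2.05, -0.44 and 2.41 in plates 1, 2 and 3. The adaptor Dok2 had 0.76 (SE 0.39, adjusted p = 0.820) and the ubiquitin-editing enzyme Tnfaip3 0.53 (SE 0.27, adjusted p = 0.819). Of 24 kinases, adaptors and receptor chains on which the members act, 20 were tested, 0 rose and 0 fell, with a median of -0.02. The smallest p there were those of Prkcq, the protein kinase C that reads diacylglycerol in T cells (0.44, adjusted p = 0.816), and of the lipid kinase subunit Pik3cd (-0.42, adjusted p = 0.819). Along the CD5 trend 1 of the 30 tested genes of the first list rose, again Cd5, and 0 of the 21 tested signalling genes did.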

How the data were processed

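The deposited gene table holds expected counts, which the authors estimated per gene and cell from distinct UMIs, with no scaling between cells (0.812% of values are not whole). CD5 was deposited as a fluorescence signal for each cell, and the authors' CD5 class is given for each cell. Mapping used BWA and mm10, per the submitters' processing notes, and no source used here states the BWA version. The 3 samples are plates of 1 gate. Nothing says that they come from separate animals, so p-values measure the spread between sums within these plates, which may be technical.

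Counts were summed per plate and class (9 sums), CD5 bin (12) or depth group (6), rounded to whole numbers and tested over all genes with edgeR 4.0.16 (quasi-likelihood, TMM, filterByExpr, two-sided) in R 4.3.3, with the plate as a block because classes of a plate share a library. Deviations of a plate's sums correlated at 0.46 to 0.82 over 191 genes. The code was tested on simulated data. Standard errors are the effect divided by the root of F. Levels (CPM) are scaled to the total of gene UMIs, spike-ins left out. DESeq2 1.42.0 was an alternative, and Python 3.11.15 with numpy 2.4.6, pandas 2.3.3, scipy 1.17.1 and matplotlib 3.10.9 gave the rest. No doublet caller was run on these single-cell sorts, and no cell was dropped from the 697 deposited.

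The 10 genes and the gene lists were chosen with earlier results of these data known. Genes named beside the 10 are Cd5, up to 4 of each list with the smallest p between the classes, the 3 most like each of the 3 most abundant members, cell type markers and the genes that set the cell groups. Family members given for their level were named after their values were seen. 1 listed marker is not reported here.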

Additional observations from a re-analysis of the deposited data

How the results depend on the processing

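The count of members called was 0 under every alternative run: 12 for the classes, 14 for the trend and 7 for the depth groups, with lowest edgeR or DESeq2 adjusted p of 0.361, 0.557 and 0.691. Not all 10 were tested throughout: between the classes and in the trend it was 4 and 4 with a mean of at least 50 counts, 4 and 5 in thinned cells and 7 and 6 without cells with a UMI of Foxp3 or other cell types, and 9 in the trend with 6 bins. For the others these settings say nothing. The 0.361 belongs to Ubash3b without plate 2. Leaving out the cell with most UMIs of each member was chosen after seeing the data. Depth limits the 6 rarest genes, with 115 to 223 UMIs each.

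Over all genes, 9 were called between the classes, against 0 by DESeq2's Wald test (147 had an unadjusted p under 0.05), 16 with no filter, 1 without the cell with most Kcnq1ot1, and 0 to 20 leaving out each plate (20 without plate 2). The trend called 6, against 3 by DESeq2, 10 with no filter, 1 without that cell, 11 with 3 bins, and 0 to 14 leaving out each plate (14 without plate 2). The depth groups called 25, against 6 by DESeq2 and 0 to 18 leaving out each plate (0 without plate 2). Without the plate as a block the counts were 0, 0 and 0, where 196, 178 and 228 genes had an unadjusted p under 0.05, and no member's call changed with the block.

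Signs turned for 9 of 105 member values between the classes. Leaving out each plate gave -0.09 to 0.02 for Dgka, -0.05 to 0.34 for Ptpn6, -1.08 to 0.29 for Ptpn2 and -0.75 to 0.07 for Sit1, each turning without plate 1, and -0.21 to 0.16 for Cblb, turning without plate 2. Thinned cells gave Ptpn6 -0.02, and cells with no UMI of Foxp3 or other cell types gave Ptpn22 -0.03, Ubash3a -0.38 and Cblb 0.62. In the trend 12 of 124 turned. Leaving out each plate gave -0.02 to 0.17 for Ptpn6, -0.15 to 0.26 for Ptpn2 (-0.04 without plate 3), -0.03 to 0.13 for Cblb and -0.12 to 0.19 for Sit1. With 6 bins Ptpn6 had -0.0049, Ptpn2 -0.0038 and Cblb -0.02, with 3 bins Ptpn2 had -0.04, and in thinned cells Ptpn22 had -0.07. Without the members' top cells Ptpn2 had -0.0013 and Cblb -0.06. Between the depth groups 4 of 70 turned, and leaving out each plate gave -0.05 to 0.18 for Dgka, -0.01 to 0.11 for Dgkz, -0.76 to 0.03 for Ubash3a and -0.13 to 0.46 for Cblb. The cause of these turns was not tested.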
